A study of Ovis aries with 15 samples.

Results

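The genes described here are the receptors, ligands and targets of Notch signalling, measured by RNA sequencing in the mammary gland of sheep in late pregnancy and in lactation. The list held 10 symbols, and a gene was a member where the name of a feature in the deposited table was one of them. This found 8 of the 10 among 24691 features, namely the receptors NOTCH1, NOTCH2, NOTCH3 and NOTCH4, the ligands JAG1 and DLL4, and the targets HES1 and HEY1. The ligand DLL1 was not found by its symbol but was matched by gene ID to LOC101117853, so its values stand beside those of the members and outside their counts. JAG2 matched no feature by name or gene ID and was not analysed here.

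The animals were Romney ewes, sampled by needle biopsy of the mammary parenchyma on day 135 of gestation (SD 2.4) and a second time on day 15 after lambing (SD 1.27). Their own dams had been given an ad libitum (HM), maintenance (MM) or sub-maintenance (LM) pasture allowance in early gestation and a maintenance allowance later, while the ewes themselves were managed alike. Each of the 3 dam feed groups had 3 late pregnancy libraries and 2 lactation libraries, 9 and 6 in all, and each library was made from a pool of RNA. By the labels a late pregnancy pool held 3 ewes and a lactation pool 2, while the study's methods give the same number for both states, and the ewes of a pool are not named, so the states could not be paired by animal. The question asked of the data was how gene expression differed between the states, and the labels add the question of the dam's feed.

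Notch receptors sit in the membrane of one cell and bind ligands of the Jagged or Delta-like kind on a neighbouring cell. Binding lets the protease ADAM10 and then gamma-secretase cut the receptor, and the freed intracellular part enters the nucleus, where it joins the DNA-binding protein RBPJ and a Mastermind-like coactivator and switches on repressors of the HES and HEY families. In the mammary gland of mice the pathway is known for its part in the choice of luminal over basal cell fate, while NOTCH4 and DLL4 are best known from blood vessels and NOTCH3 from the mural cells around them.

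Exon reads numbered 6471237 to 16898986 per late pregnancy library and 9014506 to 24001031 per lactation library. Of them, 13.7% to 23.4% fell on the genes of 7 milk proteins before birth, and 71.3% to 75.8% during lactation. The scaling therefore matters to every value below: counts scaled to a common library size (CPM) were computed on library sizes scaled by TMM, which sets the bulk of genes level between the states, and the median log2 change of the 13345 genes tested was then -0.03. On library totals alone that median was -1.94. One lactation library, HM lactation 1, stood apart, with 13.2% of its reads on genes lying in introns, where the other lactation libraries had at most 6.68% and late pregnancy libraries 14.4% to 16.1%. Leaving it out changed the call of no member, but it ended that of DLL1, as given below.

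Between the states, 3 of the 8 members, all of them receptors, were higher in lactation and 5, namely NOTCH3, both ligands and both targets, were lower, whereas on library totals alone NOTCH2 and NOTCH4 were called lower as well and NOTCH1 was not called. A gene was called at an adjusted p under 0.05 in edgeR's quasi-likelihood F-test, with the Benjamini-Hochberg adjustment over all tested genes. Of all tested genes 68.4% were called, 33.1% as higher and 35.2% as lower, so a call was common in these data and the number of members called is not in itself a result about them. Only NOTCH1 and HES1 changed by more than 2-fold, against 22.1% of all tested genes. For 5 members no library of one state lay within the range of the other, namely NOTCH1, NOTCH2, NOTCH4, JAG1 and HES1, while 40.2% of all tested genes did the same. The median log2 change of the members was -0.36. The libraries are pools of tissue, so a p-value sets a change against the spread between pools, and fewer cells of a type cannot be told apart from less RNA in each. The test treated the 15 libraries as independent, although ewes were sampled in both states.

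**Figure D1:**
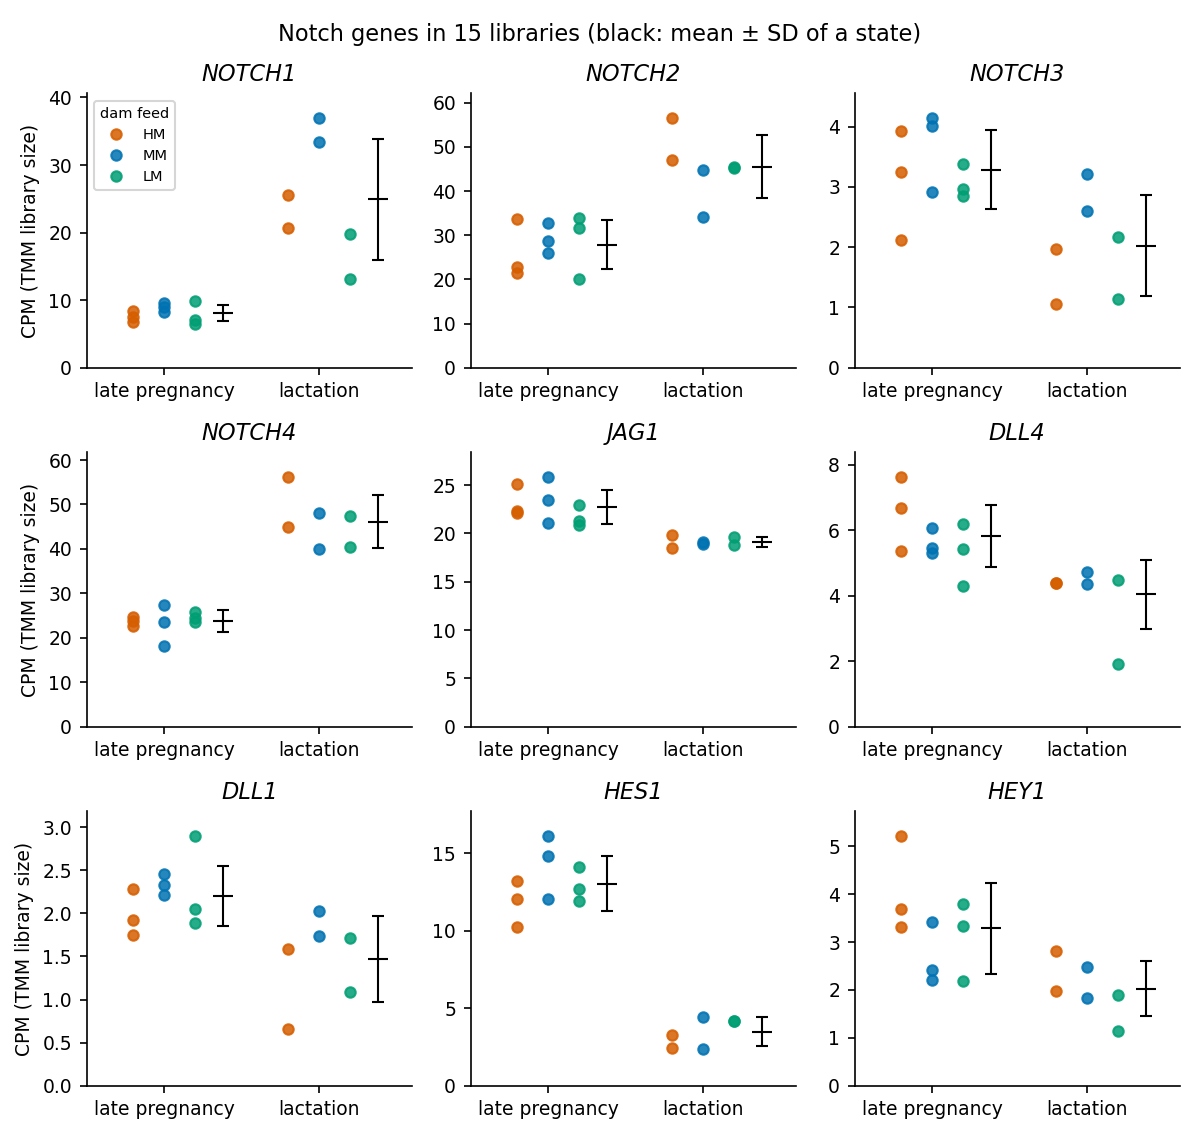
CPM on TMM library sizes (vertical axis, from 0) of the 8 members and of DLL1 in each of 9 late pregnancy and 6 lactation libraries, coloured by the feed group of the ewes' dams, with black bars for the mean ± SD of each state. The lactation points of NOTCH1, NOTCH2 and NOTCH4 lie above all late pregnancy points and those of JAG1 and HES1 below, a pattern of this scale that, for the 3 receptors, is not found on library totals alone.

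NOTCH1, a receptor used in many epithelia and known for its mutations in T cell leukaemia, lies on chromosome 3 at chr3:2871491-2902019 of the sheep assembly the files use, which the labels name as Oar_v3.1. Its expression was 6.49 CPM at the lowest, 8.27 at the median and 9.85 at the highest in late pregnancy, and 13.1, 23.1 and 36.9 CPM in lactation. All 6 lactation libraries were above every late pregnancy library, and the lactation libraries were spread more widely, with a coefficient of variation of 35.8% against 15.2%. The log2 change was 1.66 ± 0.17 (SE), or 3.16-fold (adjusted p = 2.8e-08), and stayed between 1.50 and 1.78 when each library was left out in turn. On library totals alone it was -0.25 (adjusted p = 0.186), or 1.69 more than the overall median gave with that scaling. Of the exon reads on NOTCH1 90.9% were placed uniquely, while those of the other members all were.

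NOTCH4, at chr20:26301125-26326667, showed the second largest rise among the receptors. It had 18.2, 23.7 and 27.5 CPM in late pregnancy as lowest, median and highest, and 39.9, 46.1 and 56.1 CPM in lactation. The states were far apart, the lowest lactation library lying well above the highest of late pregnancy, and the log2 change was 0.95 ± 0.08 (SE; adjusted p = 3.2e-09). NOTCH2, a receptor of many epithelial and stromal cells, lies at chr1:96427075-96607239 and ranged from 20.0 through a median of 28.6 to 33.8 CPM in late pregnancy. In lactation it ranged from 34.1 through 45.4 to 56.4 CPM, with the lowest lactation library just above the highest late pregnancy one, and rose by 0.70 ± 0.12 (log2, SE; adjusted p = 5.2e-05). With library totals alone the log2 changes of NOTCH4 and NOTCH2 were -0.96 and -1.22, or 0.98 and 0.72 more than the overall median.

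NOTCH3 (chr5:7690387-7725893) was the only receptor called lower. Its late pregnancy values were 2.12, 3.25 and 4.14 CPM as lowest, median and highest, and its lactation values 1.05, 2.07 and 3.22 CPM. The states overlapped, since 3 of 6 lactation libraries were below every late pregnancy library and the others lay within their range. The log2 change was -0.59 ± 0.21 (SE; adjusted p = 0.0201), on 43 to 99 reads in a late pregnancy library and 6 to 37 in a lactation library. This call rested on single libraries: without HM lactation 2 the change was -0.47 (adjusted p = 0.0562) and without LM lactation 2 it was -0.49 (adjusted p = 0.0536). Of 6 genes listed as markers of mural cells, 3 were lower in lactation and none higher. Their summed level was 21.4 to 31.8 CPM in late pregnancy and 14.8 to 22.2 CPM in lactation. None was at the floor, meaning at most 3 reads in every library of both states. The part of these markers in the change of NOTCH3 was not tested.

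Measured against each other within a library, where the scaling between libraries cancels, the receptors also shifted. NOTCH3 made up 4.23% to 7.18% of the summed RPKM (exon reads divided by exon length and by the library's reads on genes) of the 4 receptors in late pregnancy and 0.853% to 2.79% in lactation, with no overlap. The share of NOTCH1 went from 14.5% to 21.4% in late pregnancy to 19.2% to 42.5% in lactation, and overlapped. NOTCH2 held 30.5% to 44.5% and then 23.1% to 39.0%, and NOTCH4 28.2% to 45.8% and then 31.5% to 41.2%, both overlapping. By this measure, which depends on the annotated exon length, NOTCH4 and NOTCH2 were the main receptor transcripts of late pregnancy. In lactation NOTCH1 was above both in the 2 MM libraries and below both in the HM and LM libraries, down to 19.2% in LM lactation 2.

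**Figure D2:**
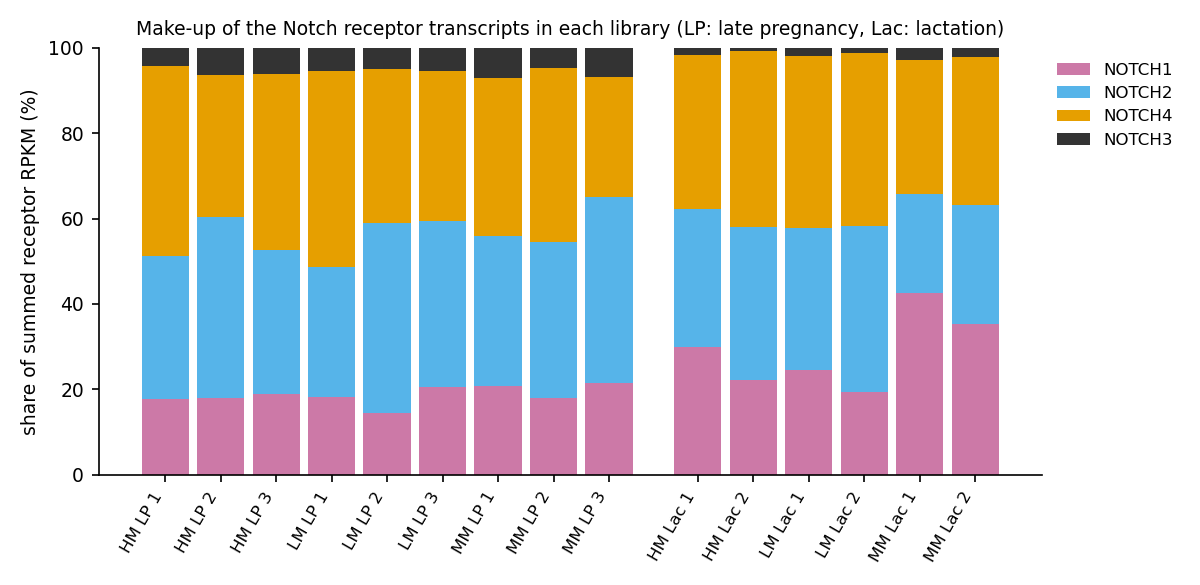
Share of NOTCH1, NOTCH2, NOTCH4 and NOTCH3 in the summed RPKM of the 4 receptors (percent, vertical axis) in each library, with the 9 late pregnancy (LP) libraries at the left and the 6 lactation (Lac) libraries at the right. The thin dark segment of NOTCH3 shrinks from 4.23% or more to 2.79% or less, and the lowest segment, NOTCH1, reaches 42.5% and 35.3% in the MM lactation libraries.

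Among the ligands, JAG1 (chr13:3416851-3459355), a ligand with a wide expression in epithelium and vessels, was the most evenly expressed. It had 20.8, 22.3 and 25.8 CPM in late pregnancy and 18.5, 19.0 and 19.9 CPM in lactation, as lowest, median and highest. Every lactation library was below every late pregnancy library although the change was small, -0.25 ± 0.06 (log2, SE; adjusted p = 0.00158), and the coefficient of variation over the lactation libraries was 2.77%, the lowest of the members. Against JAG1, the reads on NOTCH1 rose from 0.300 to 0.473 per JAG1 read in late pregnancy to 0.697 to 1.94 in lactation.

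DLL4, the ligand of sprouting vessels, lies at chr7:33476005-33485287. It had 4.29, 5.45 and 7.61 CPM in late pregnancy and 1.90, 4.40 and 4.73 CPM in lactation, and 5 of the 6 lactation libraries lay between 4.35 and 4.73 CPM, inside the lower end of the late pregnancy range. The exception was LM lactation 2, at 1.90 CPM. The log2 change was -0.48 ± 0.16 (SE; adjusted p = 0.0102). It did not pass the test with limma on quantile-normalized RPKM (adjusted p = 0.109 with a pseudocount of 1). DLL1, matched by gene ID at chr8:90486280-90523290, had 1.75, 2.22 and 2.89 CPM in late pregnancy and 0.659, 1.65 and 2.03 CPM in lactation, on only 3 to 20 reads per lactation library. Its log2 change was -0.53 ± 0.20 (SE; adjusted p = 0.0222), and it was no longer called without HM lactation 1 (-0.42; adjusted p = 0.0542) or without LM lactation 1 (-0.44; adjusted p = 0.0657).

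NOTCH4 and DLL4, both known from endothelium, went opposite ways on the TMM scale, but on library totals alone both were lower. Within a library there were 3.00 to 5.47 NOTCH4 reads per DLL4 read in late pregnancy and 9.18 to 21.2 in lactation. Of 11 tested endothelial markers 9 were lower in lactation and none higher, among them PECAM1 (-0.71 ± 0.08, log2 and SE) and CDH5 (-0.55 ± 0.09), while KDR, the main receptor for VEGF, had 57.0 CPM in late pregnancy and 58.0 CPM in lactation on average. The summed level of the list was 247 to 330 CPM in late pregnancy and 169 to 236 CPM in lactation, and no marker of it was at the floor. Its part in the changes of NOTCH4, DLL4 and HEY1 was not tested.

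HES1 (chr1:191625480-191627430), a repressor that is the classical target of Notch, was the member that changed most. It had 10.2, 12.7 and 16.1 CPM in late pregnancy and 2.37, 3.74 and 4.44 CPM in lactation, so that the highest lactation library lay below the lowest of late pregnancy by more than the whole spread of lactation. The log2 change was -1.88 ± 0.14 (SE), or 3.69-fold lower (adjusted p = 4.6e-10), a call kept with every library left out in turn. In a late pregnancy library 112 to 372 reads stood behind the value and in a lactation library 14 to 51.

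Beside NOTCH1 the contrast was wide: there were 1.22 to 1.98 HES1 reads per NOTCH1 read in late pregnancy and 0.0709 to 0.319 in lactation. HES1 is also a target of other signals. All 6 listed genes of cell division were lower in lactation, with a summed level of 67.7 to 150 CPM in late pregnancy and 6.37 to 20.3 CPM in lactation, 7 of 8 tested fibroblast markers were lower, with a summed level of 1353 to 2145 and then 651 to 1037 CPM, and all 5 tested T cell markers were lower, with 36.6 to 59.5 and then 12.1 to 18.9 CPM. No marker of these 3 lists was at the floor, but a gene low in lactation alone does not count as being there. In lactation BUB1 had a mean of 0.497 CPM, AURKA 0.339 CPM and CD8A 0.193 CPM. Of 10 tested luminal epithelial markers 5 were higher and 2 lower, with a summed level of 1551 to 1909 CPM in late pregnancy and 2551 to 2758 CPM in lactation. The sums weigh abundant markers most, such as COL3A1 for fibroblasts and ELF5 for luminal cells. The median log2 change of the tested markers was -0.54 for fibroblasts, 0.23 for luminal epithelium, -1.62 for T cells and -3.21 for cell division. The part of these cell types in the changes of HES1 and NOTCH1 was not tested.

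HEY1 (chr9:55827142-55830887), a related repressor known from endothelium and heart, had 2.20, 3.35 and 5.21 CPM in late pregnancy and 1.14, 1.94 and 2.81 CPM in lactation. The states overlapped, with 4 of 6 lactation libraries below every late pregnancy library. Its log2 change was -0.67 ± 0.22 (SE; adjusted p = 0.0119), on 6 to 22 reads in a lactation library, and it too missed the threshold with limma on quantile-normalized RPKM (adjusted p = 0.0761 with a pseudocount of 1).

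Levels can be compared between genes per length of annotated exons, within a state, and so depend on the gene models. NOTCH1 was annotated with 21 exons and 4565 bases, NOTCH2 with 34 exons and 7766 bases, and HES1 with 920 bases. Whether these models are complete was not tested. In late pregnancy HES1 stood first at a mean of 20.5 RPKM ± 3.36 (SD, n = 9), above the next gene, JAG1 at 6.01, in 9 of 9 libraries. NOTCH2 at 5.23 and NOTCH4 at 5.16 RPKM could not be put in order, NOTCH2 being the higher in 4 of 9 libraries, and the same held for NOTCH1 at 2.57 and DLL4 at 2.44, with NOTCH1 the higher in 5 of 9. HEY1 at 2.19 and NOTCH3 at 0.787 RPKM came last, NOTCH3 below HEY1 in every library.

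In lactation the receptors other than NOTCH3 came first by mean, NOTCH4 at 2.89 RPKM ± 0.306 (SD, n = 6), NOTCH2 at 2.45 and NOTCH1 at 2.30, followed by HES1 at 1.60 and JAG1 at 1.47. NOTCH4 was above NOTCH2 in 6 of 6 libraries, while NOTCH2 against NOTCH1, NOTCH1 against HES1 and HES1 against JAG1 each held in 4 of 6 only. DLL4 at 0.493, HEY1 at 0.393 and NOTCH3 at 0.141 RPKM closed the order, with JAG1 above DLL4 and HEY1 above NOTCH3 in every library. RPKM is relative to all reads on genes, most of which were on milk protein genes in lactation, so these levels are set against each other and not between the states.

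Reads on introns, taken as all reads of a gene minus its exon reads, can come from transcripts not yet spliced. Reads on any exon missing from a gene model would be counted with them. They were scaled by their own TMM factors and tested in the same way over 10344 genes, of which 58.0% were called, 29.0% as higher and 29.0% as lower. Of the 5 members with enough intron reads, NOTCH1, NOTCH2, NOTCH3, NOTCH4 and JAG1, the test called 2. NOTCH1 was higher on introns by 2.46 ± 0.21 (log2, SE; adjusted p = 5.0e-10), on 5 to 17 intron reads in a late pregnancy library and 9 to 49 in a lactation library, and NOTCH3 was lower by -1.04 ± 0.24 (adjusted p = 7.5e-04).

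NOTCH2 and NOTCH4, higher on exons, had intron changes near 0, at 0.03 ± 0.09 (adjusted p = 0.876) and 0.06 ± 0.16 (adjusted p = 0.775), and JAG1 had -0.08 ± 0.14 (adjusted p = 0.68). The difference between the exon and the intron change of a gene was not tested, and the share of intron reads among a gene's reads overlapped between the states for every member. For NOTCH2 that share was 18.0% to 28.6% in late pregnancy and 13.0% to 20.2% in lactation, and for NOTCH4 11.6% to 18.2% and 7.54% to 12.4%. With the TMM factors of the exon reads in place of those of the intron reads, all 5 intron changes moved upward, NOTCH1 to 3.75, NOTCH3 to 0.21 (adjusted p = 0.488), NOTCH2 to 1.33, NOTCH4 to 1.37 and JAG1 to 1.25, and 4 members were called. NOTCH1 was the member called in the same direction with either choice, though in 7 of the 15 fits that left out a library it had too few reads to be tested. Without HM lactation 1, the library rich in intron reads, NOTCH1 had 2.54 and NOTCH3 -1.06. HES1 had 8 to 25 intron reads in a late pregnancy library and 0 to 3 in a lactation library. It was too low to test over all 15 libraries. When any of the 6 lactation libraries was left out it could be tested, with changes of -2.63 to -1.92. It then passed the filter through its late pregnancy reads, so the direction was set by the filter and is no separate support for the exon change.

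**Figure D3:**
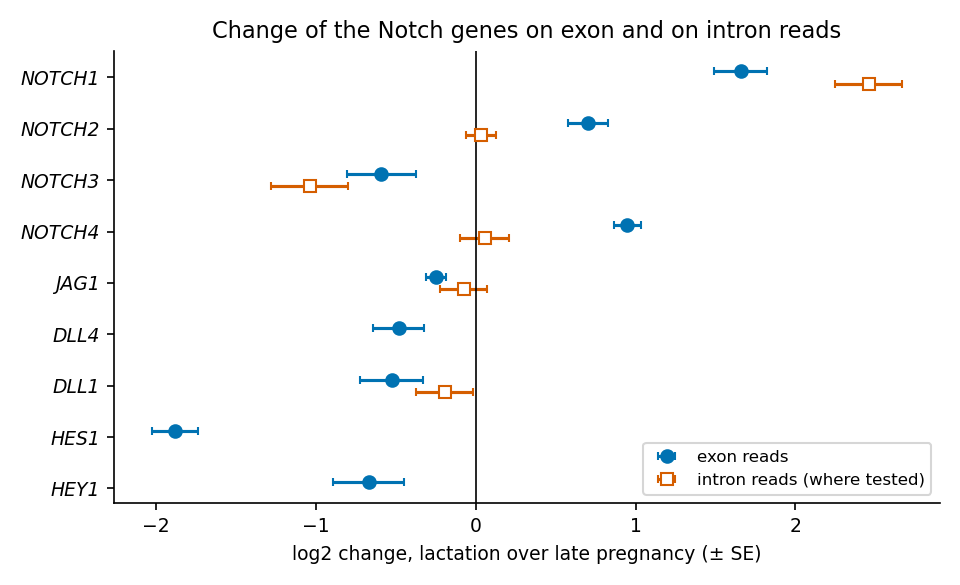
Log2 change of lactation over late pregnancy (horizontal axis, ± SE) on exon reads (filled circles) and on intron reads (open squares, for genes with enough reads to test), each on its own TMM factors. NOTCH1 lies to the right on both, at 1.66 and 2.46, while the squares of NOTCH2, NOTCH4 and JAG1 lie near 0; on library totals alone the exon changes of NOTCH1, NOTCH2 and NOTCH4 would lie below 0.

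The feed of the ewes' dams gave no call among the members. In late pregnancy 0 of 13747 genes were called over the 3 groups with edgeR (0%), 571 had an unadjusted p under 0.05 and DESeq2 called 18, none of the 571 being a member. Across the lactation libraries 1 of 11777 genes was called (0.00849%), again no member. The interaction of state and dam feed gave 0 calls of 13345 (0%), with 876 genes at an unadjusted p under 0.05 and 19 calls by DESeq2.

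NOTCH1 had the lowest p of the members in lactation. It stood at 36.9 and 33.4 CPM in the MM libraries, 25.5 and 20.7 CPM in the HM libraries and 19.8 and 13.1 CPM in the LM libraries. The feed groups kept apart in that order, but the difference, the only one among the members with an unadjusted p under 0.05, did not pass edgeR's test (adjusted p = 0.278), nor did the interaction with the state (adjusted p = 0.735). In late pregnancy the same 3 groups overlapped for NOTCH1, between 6.49 and 9.85 CPM. Only 2 libraries per group stood behind the lactation values, and the column names give lane 7 for both HM and lane 8 for both LM lactation libraries, so the lane in the name and the difference between those groups cannot be told apart, although the labels say that each library was run on more than 1 lane.

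The difference between the states had the same sign in each dam feed group for every member on the TMM scale. The log2 ratio of mean CPM for NOTCH1 was 1.98 in MM, 1.62 in HM and 1.08 in LM ewes, and that of HES1 was -2.07, -2.04 and -1.63. For NOTCH4 the ratios were 0.93, 1.09 and 0.83. The states overlapped within a feed group for NOTCH3 and HEY1 in MM ewes and for DLL4 in LM ewes.

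Other genes of the pathway were counted over a list of 65, of which 61 matched a feature and 54 were tested. In lactation 19 were higher, 20 were lower and 15 were not called, a share called of 72.2% beside 68.4% of all tested genes, while library totals alone gave 1 higher and 51 lower. The median log2 change of the list was -0.13. DTX4 was the gene still called higher there, at 0.70. Changes of more than 2-fold were found for 4 genes that were higher and 7 that were lower, a share of 20.4% beside 22.1% of all tested genes.

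Near the ligands, 6 other ligand and ligand-like genes were listed. DLL3, DNER and CNTN6 had at most 3 reads in any library and were not tested. The 3 that were tested were called lower, among them CNTN1, named after its value was seen, at -0.72 with the states overlapping. DLK1, a Delta-like protein of progenitor cells, fell from 9.73 ± 1.99 to 3.18 ± 0.742 CPM (mean ± SD, n = 9 and 6), a log2 change of -1.57 ± 0.17 (SE; adjusted p = 5.9e-08), and DLK2 had -2.66 ± 0.46 at a level of 1.08 CPM in late pregnancy and 0.141 CPM in lactation. With 0 to 0.407 CPM in lactation, DLK2 was kept by the filter through late pregnancy, so its direction was set by the filter. Of the 3 tested ubiquitin ligases that drive the uptake of bound ligand 2 were higher, MIB1 by 1.14 ± 0.09 (adjusted p = 1.3e-09) and MIB2 by 0.49 ± 0.09 (adjusted p = 5.2e-05), which were -0.78 and -1.41 on library totals alone. NEURL1B, named after its value was seen, had -0.46 (adjusted p = 0.15).

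Receptor processing held calls in both directions. Of 6 genes that put sugars on the receptor 3 were lower, 1 was higher and 2 were not called. Those lower were the Fringe enzymes LFNG, MFNG and RFNG, at -0.87, -0.44 and -0.41 (LFNG and MFNG were picked out after their values were seen). For LFNG and MFNG the states overlapped. POGLUT1, also named after its value was seen, was higher by 0.26 (adjusted p = 0.0169). ADAM10, which makes the first cut after ligand binding and was the most abundant of the proteases, fell from 191 ± 19.2 to 88.0 ± 8.07 CPM (log2 change -1.11 ± 0.07, adjusted p = 6.0e-11), and FURIN, which cuts the receptor on its way to the surface, fell by 1.42 ± 0.11 on the log2 scale, while ADAM17, named after its value was seen, was higher by 0.21 ± 0.06 (adjusted p = 0.00309). Gamma-secretase subunits were all called, 4 higher and 2 lower on the TMM scale: PSENEN, the most abundant, rose by 0.44 ± 0.06, and APH1B rose by 1.96 ± 0.31 from 0.421 to 1.67 CPM, the library totals alone giving -1.46 and 0.07.

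Within the nuclear complex RBPJ itself, chosen after its value was seen, had a log2 change of 0.05 ± 0.09 (adjusted p = 0.645). Of the Mastermind-like coactivators, MAML3 went from 7.70 ± 1.29 to 31.3 ± 4.33 CPM (2.03 ± 0.10, adjusted p = 1.2e-12) and MAML2 from 4.72 ± 1.15 to 1.59 ± 0.551 CPM (-1.55 ± 0.23, adjusted p = 5.9e-06). MAML1, named after its value was seen, was not called (0.18 ± 0.12, adjusted p = 0.195). On library totals alone MAML3 had 0.12 (adjusted p = 0.356) and MAML2 -3.46. KAT2B, a histone acetyltransferase and the most abundant gene of this role, fell from 179 ± 17.1 to 92.0 ± 7.37 CPM. Among the corepressors 3 were higher and 3 lower of 12 tested, with HDAC1, the most abundant, at -0.21 ± 0.06 and RBPJL, a relative of RBPJ, at -1.16 ± 0.36 on under 1 CPM.

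Of 11 genes listed under inhibitors and turnover of Notch, a grouping whose fit to each gene was not tested, 5 were higher and 3 lower. The Deltex ubiquitin ligases stood at both ends, DTX4 at 2.59 ± 0.26 (0.566 to 3.38 CPM) and DTX3 at -1.39 ± 0.14 (7.81 to 3.02 CPM), and the most abundant gene, EPN1, had 0.28 ± 0.08. Of the other HES and HEY genes that matched a feature, only HES2 and HEYL were tested. HES2, the more abundant, had 2.39 ± 0.460 CPM in late pregnancy and 1.89 ± 0.514 CPM in lactation (adjusted p = 0.121). HEYL, named after its value was seen, was lower by -0.51 ± 0.21 (adjusted p = 0.0367). HES4, HES6 and the listed target NRARP matched no feature, so their levels are not known here. HES5, HES7 and HEY2 had at most 4 reads in any library.

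**Figure D4:**
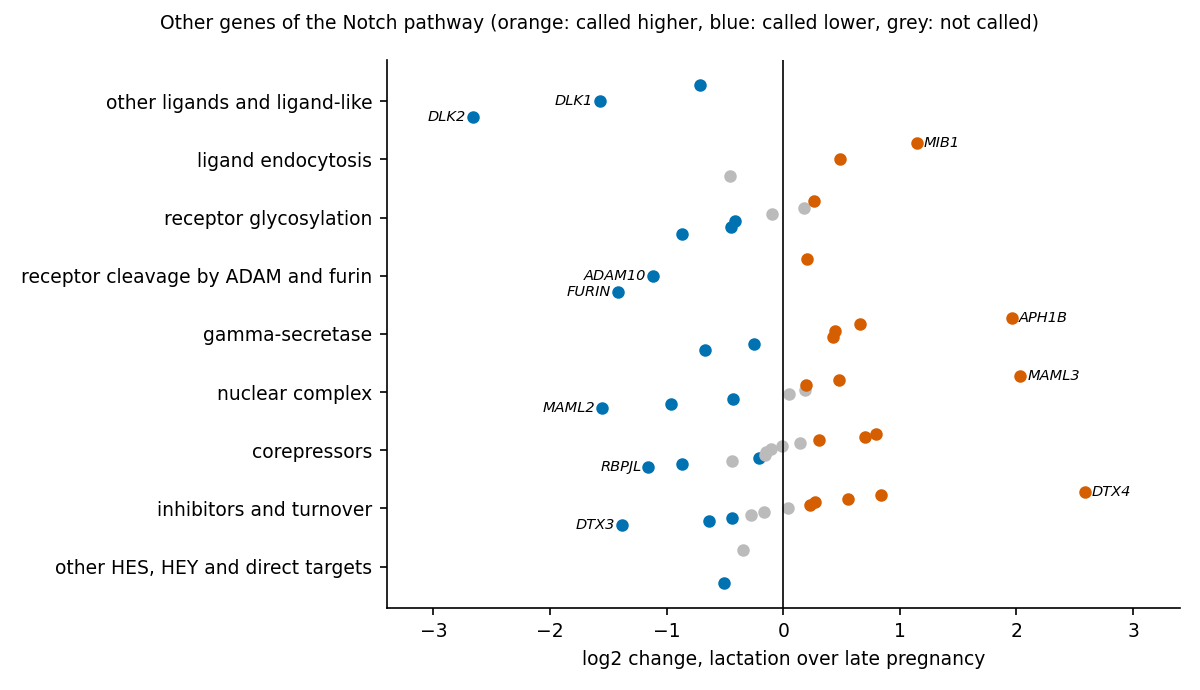
Log2 change of lactation over late pregnancy (horizontal axis, on TMM library sizes) of the 54 tested pathway genes, 1 point a gene, grouped by role, with names for those called and changed by more than 2-fold. Points of either colour occur in most roles, the proteases ADAM10 and FURIN and the ligand-like DLK1 and DLK2 lie at the left and APH1B, MAML3 and DTX4 at the right; on library totals alone 51 of the genes were called lower.

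The tested genes nearest in pattern were found by the root mean square difference of centred log2(CPM + 1) over the 15 libraries. For NOTCH4 they were NUS1 (0.094), SRP54 (0.105) and TMED2 (0.107), and for JAG1 HNRNPM (0.071), LOC101119564 (0.078) and UPF2 (0.079), which were the closest matches of any member. NOTCH2 was nearest to RLIM (0.122), LNPEP (0.139) and HIPK3 (0.152), and HES1 to RPL6 (0.165), CNN3 (0.174) and GTSE1 (0.188). NOTCH1 had LOC101121082 at 0.182, then NAV3 (0.265) and PDP2 (0.275) at a greater distance. NOTCH3 was nearest to SFXN4, C7H15orf48 and VWF (0.166 to 0.181), DLL4 to TBC1D24, PLCXD1 and LOC101110458 (0.144 to 0.161), and HEY1 to SDPR, LRRC27 and S1PR1 (0.204 to 0.209). The added 1 shrinks changes at low CPM, so a gene near by this measure can differ in its tested log2 change. GTSE1 had -3.11 beside -1.88 for HES1, LRRC27 -1.33 beside -0.67 for HEY1, and C7H15orf48 -1.15 beside -0.59 for NOTCH3.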

How the data were processed

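Total RNA from 15 pools of mammary biopsies was sequenced as 100 bp paired reads on an Illumina Hi-Seq instrument. The authors mapped the reads to the Ovis aries genome in CLC Genomics Workbench and deposited counts of reads on exons and on whole genes, without normalization, with RPKM and quantile-normalized RPKM. The labels name Oar_v3.1, while the paper gives another version number. Deposited RPKM matched RPKM recomputed from the counts to within 3.5e-07 of its value. The deposited fold changes, p-values and false discovery rates of the authors' Baggerly test were not used.

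Tests used edgeR 4.0.16 under R 4.3.3 on exon reads, or on whole-gene reads for the 5583 features lacking a transcript model: filterByExpr by state, TMM, quasi-likelihood F-test without covariates, Benjamini-Hochberg adjustment over 13345 genes, called under 0.05. Dam feed was tested over 3 groups within each state and as an interaction. DESeq2 1.42.0, limma 3.58.1 on log2(RPKM + pseudocount), other scalings and filters, single lanes, a replicate block and leaving out each library were alternatives. The tests were tried on simulated data. Python 3.11.15 did the rest.

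All members were named, with the pathway genes called at more than 2-fold, the most abundant gene by RPKM in each role, and the 3 nearest genes in pattern per member. The members and lists were chosen with earlier results of these data known. Depth limits the low genes: counting error is not separated from the spread between pools. Reads were counted without molecular identifiers or stated strand.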

Additional observations from a re-analysis of the deposited data

Results flagged for a closer look

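DLL4 in the library LM lactation 2, at 1.90 CPM on 10 reads, lay far below the other lactation libraries, of which the next lowest had 4.35 CPM. The gap made up 0.864 of the range of the 6 lactation libraries. It was 1 of 18 groups of values examined in this way, and chance marks about 1 in 20. Without that library the log2 change of DLL4 was -0.36 (adjusted p = 0.0242), and over all 15 libraries left out in turn it ranged from -0.53 to -0.36.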

How the results depend on the processing

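The calls of NOTCH1, NOTCH2, NOTCH4, JAG1 and HES1 kept their direction and stayed past the threshold with DESeq2, upper quartile scaling, no filter on low counts, at least 10 reads in every library, uniquely placed reads, all reads on the gene, limma with either pseudocount, dam feed as a covariate and each library left out. On library totals alone NOTCH1, NOTCH2 and NOTCH4 turned to -0.25, -1.22 and -0.96, no member was higher (0), and 1 other pathway gene was higher and 51 were lower. The number of members lower, 5 in the text, was 3 with at least 10 reads in every library, which leaves NOTCH3 and HEY1 untested, 2 with limma at a pseudocount of 1, 3 at a pseudocount of 0.1, and 2 in each of lanes 7 and 8 alone, where fewer libraries were compared. The log2 changes that missed the threshold were, with limma at a pseudocount of 1, NOTCH3 at -0.15, DLL4 at -0.18 and HEY1 at -0.25, and at 0.1, DLL4 at -0.29 and HEY1 at -0.41. In lane 7 alone they were NOTCH3 at -0.52, DLL4 at -0.37 and HEY1 at -0.70, and in lane 8 alone DLL4 at -0.60, JAG1 at -0.20 and HEY1 at -0.66. The cause of these losses was not tested. DLL1 was not called with all reads on the gene (-0.31), limma or either lane.

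Over the 15 libraries left out in turn, members higher stayed at 3 and members lower at 4 to 5, other pathway genes higher at 19 to 20 and lower at 19 to 21, and all genes called at 8891 to 9049. The log2 change ranged from 0.63 to 0.78 for NOTCH2, -0.81 to -0.47 for NOTCH3, 0.89 to 0.99 for NOTCH4, -0.26 to -0.22 for JAG1 and -0.77 to -0.57 for HEY1. Members called on intron reads were 1 to 3 in fits that left out a library, chosen after seeing the data, and 4 with the TMM factors of the exon reads. Where a lactation library was left out, the count included HES1, which the filter kept through late pregnancy. Replicate numbers gave no clear pairing of the libraries. Each library's log2(CPM + 1) was taken as a deviation from the mean of its state. These deviations correlated at -0.05 to 0.12 between same-numbered libraries of the states. Only LM 1 of 6 lactation libraries correlated best with its own number. Such values cannot show whether same-numbered pools shared ewes. With a replicate block 8464 genes were called, 3 members were higher and 5 lower, and NOTCH3 had -0.60 (adjusted p = 0.0345). Depth limits NOTCH3, HEY1, DLL1 and DLL4, with as few as 6, 6, 3 and 10 reads in a lactation library.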
